A study of Mus with 96 samples.

Results

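The livers of 4 Hep-Bmal1KO mice and 4 Hep-Bmal1WT mice fed cdHFD and killed at ZT2 were compared gene by gene. These are 8 of the 96 liver libraries of the study, chosen by the genotype, diet and ZT in their titles. ZT counts hours from lights on, so ZT2 lies early in the light phase, the rest phase of a mouse. The study crossed genotype with diet (normal chow or cdHFD) at 6 ZTs, with 4 mice per group. BRB-seq, which reads a tag near the 3′ end of each mRNA, was used on all livers. Hep-Bmal1KO mice carry Alb-Cre/+ and Bmal1 flx/flx, and their Hep-Bmal1WT littermates carry Alb+/+ and the same Bmal1 flx/flx alleles without Cre. Hereafter the libraries are called KO and WT. Cre is driven by the albumin promoter, so other cells of the liver keep Bmal1, and the controls share the floxed alleles but not the Cre transgene. All mice were C57BL/6J and were 8 to 10 weeks old when housed for the study, before acclimation and the diet period. The cdHFD is a choline-deficient high-fat diet given for 2 weeks to induce steatohepatitis. In both genotypes at ZT2, replicates 1 and 2 were female and replicates 3 and 4 were male, and replicate numbers only name the libraries. For comparison, 8 cdHFD libraries from 12 h later (ZT14) and 8 chow libraries from ZT2 were used. In those, the WT group at ZT14 held 3 males and 1 female, and each other group held 2 of each sex.

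Bmal1, whose gene symbol is Arntl, pairs with CLOCK or NPAS2 and switches on genes whose products feed back on it. PER and CRY proteins block the pair directly. REV-ERB proteins (Nr1d1 and Nr1d2) repress, and ROR proteins activate, a common set of target genes that includes Arntl, Npas2 and Cry1. The pair also drives Dbp, Tef and Hlf, transcription factors that pass the rhythm on to genes of hepatic metabolism, among them many for detoxification and lipid handling. REV-ERB and DBP transcripts are normally high in the light phase in mouse liver, and those of Npas2 and Cry1 are normally high around the dark-to-light transition and at night.

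The 8 libraries held 6417449 to 8868450 reads on genes (median 6932342.5), and the ZT14 libraries held 5264167 to 9718615. Hepatocyte mRNA was present in all of them (Alb 46316 to 68171 CPM in WT and 44757 to 61397 in KO). The targeted gene did not separate the labels at this time. Arntl (chr7:113178471-113314126 in GRCm38.p6) stood at 5.96, 1.95, 8.73 and 5.49 CPM in the WT libraries and at 5.58, 5.72, 4.28 and 8.03 in the KO libraries (log2 fold change 0.084 ± 0.38, adjusted p = 0.972). CPM here are counts scaled by library size after TMM normalization, errors of fold changes are SE, and adjusted p values come from edgeR's quasi-likelihood test. The position of the floxed segment relative to the sequenced 3′ tag is not given in the sources used here, and the WT level of Arntl was low at this hour on cdHFD. On chow at ZT2 it was 14.6 to 25.7 CPM in WT and 7.54 to 12.9 in KO, 2 groups that did not overlap, although the test was not passed there either (log2 fold change -1.05 ± 0.31, adjusted p = 0.125). The labels were therefore checked against 20 genes that separated the genotypes at the other 4 ZTs on cdHFD. Each library was placed on a scale from 0 for WT to 1 for KO. The ends were the medians per gene of the other WT and KO libraries of its diet and ZT. The WT libraries at ZT2 lay between -0.030 and 0.238, and the KO libraries between 0.746 and 1.16. At ZT14, however, the library labelled WT replicate 1 lay at 1.23 and the library labelled KO replicate 1 at -0.043. Both lie nearer to the other genotype than to their own, so the counts that involve ZT14 are given with and without them. The 20 genes included Cyp2a5, Cyp2a4, Khk, Lpl and Ces1d, so leaving out the 2 libraries is no independent test of these genes, and no p without the libraries is given for them. Among the ZT2 libraries, WT replicate 3 carried mRNA of other tissues (Acta1 246 CPM of skeletal muscle, Prss2 10.9 CPM of pancreas), against at most 3.62 and 0.457 CPM in the other 7. The labels name each library by a letter and a number, and every number held a single genotype, so any effect that goes with this number and genotype cannot be told apart.

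Of 15548 genes tested, 52 (0.334%) differed between KO and WT at ZT2 at an adjusted p under 0.05, 20 higher in KO (0.129%) and 32 lower (0.206%). The smallest p values were those of clock genes, while the largest folds among called genes of at least 5 CPM were those of Cyp2b10 and Cyp2a5. Cry1 and Npas2 were higher in KO, and Nr1d1, Nr1d2, Dbp, Tef, Per3 and Usp2 were lower. Outside the clock, transcripts of a mitochondrial protease subunit (Clpx), 2 growth regulators (Cdkn1a and Ddit4l) and the detoxification gene Cyp2b10 were higher, while those of uridine phosphorylase (Upp2), coumarin hydroxylase (Cyp2a5) and a glutamate transporter (Slc1a2) were lower. In 44 of the 52 genes the 4 KO libraries lay wholly above or below the 4 WT libraries. Over all genes tested that held for 675 (4.34%), and the choice of the genes on these libraries favors it. The absolute log2 fold change was at least 1 in 37 of them, and the median over all genes was -0.0015. With a mean below 5 CPM, 5 of the 52 (Tinag, Lingo4, Ccn4, Tafa2 and Lipe) rest on few reads. At an unadjusted p under 0.05, 1692 genes passed (10.9%). The number called depended on single libraries and was 28 without WT replicate 2, 91 without WT replicate 3, 31 without KO replicate 3 and 21 without KO replicate 4, and 24 without a term for sex. The ZT14 libraries share the estimate of the spread, and the ZT2 count was 32 without their WT replicate 3 and 127 without their KO replicate 1. These p values measure the spread between mice.

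**Figure D1:**
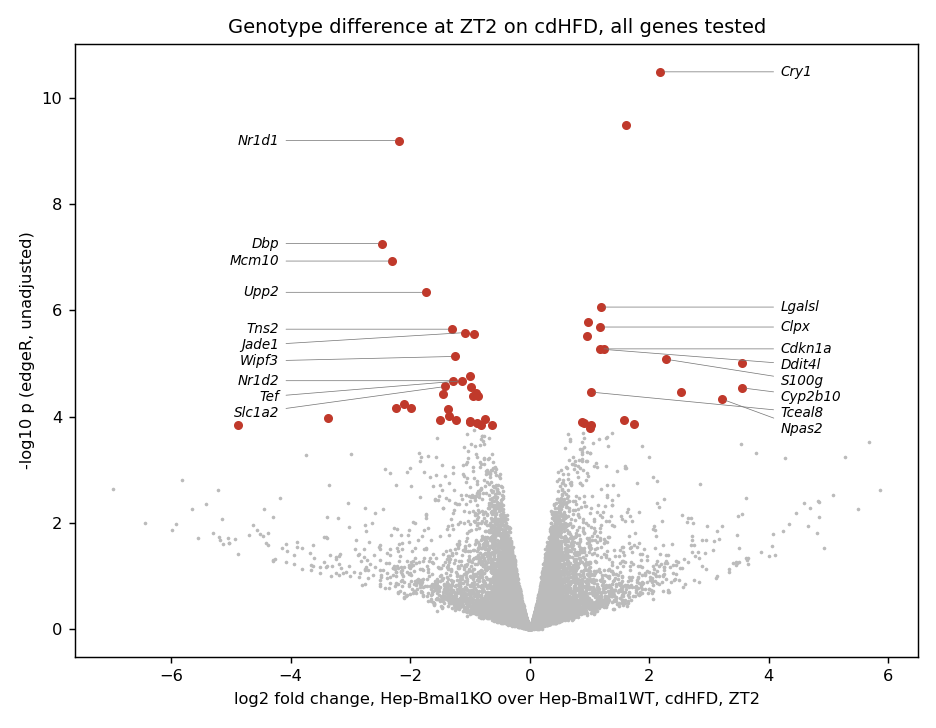
Each point is 1 of the 15548 genes tested at ZT2 on cdHFD, with the log2 fold change of Hep-Bmal1KO over Hep-Bmal1WT on the horizontal axis and -log10 of the unadjusted edgeR p on the vertical axis. The 52 genes with an adjusted p under 0.05 are red, and Cry1 has the smallest p of all genes.

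Within the activating limb of the clock, 1 of 4 genes was higher in KO and none was lower. Npas2, which can take the place of CLOCK beside BMAL1, was almost silent in WT at 1.25, 0.556, 1.29 and 0.915 CPM and reached 10.96, 9.92, 8.08 and 9.22 CPM in KO (log2 fold change 3.22 ± 0.65, adjusted p = 0.0237). Every KO library was above every WT library. The Npas2 call was lost without WT replicate 1, 2 or 4 or without KO replicate 1, 3 or 4. It was kept with the 8 ZT2 libraries alone. Without the 2 ZT14 libraries nearer to the other label its edgeR adjusted p was 5.14e-06, although that fit is no independent test. At ZT14 those 2 libraries stood at 12.5 CPM (WT) and 0.663 CPM (KO), against 1.40 to 4.99 and 8.80 to 13.2 CPM in the others of each label. Clock was at 11.7 to 20.03 CPM in WT and 12.8 to 21.5 CPM in KO (log2 fold change 0.15 ± 0.21, adjusted p = 0.858), and Rora was at 38.3 to 103 and 43.9 to 69.8 CPM (log2 fold change 0.015 ± 0.24, adjusted p = 0.994). Both overlapped, as did Arntl.

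Among 10 repressors of the clock, 1 was higher and 3 were lower in KO, and the median log2 fold change was -0.87. Cry1 (chr10:85131700-85185054), which encodes a direct inhibitor of the BMAL1 pair, gave the smallest p of all genes. It was at 5.27, 5.704, 3.86 and 3.202 CPM in WT and at 24.5, 25.4, 15.4 and 17.2 CPM in KO (log2 fold change 2.19 ± 0.19, adjusted p = 4.99e-07). The lowest KO library was well above the highest WT library. Nr1d1 (chr11:98767932-98775377), which encodes REV-ERBα, moved the opposite way, with 76.2, 75.7, 59.1 and 53.1 CPM in WT and 11.1, 17.2, 16.8 and 12.5 CPM in KO (log2 fold change -2.2 ± 0.22, adjusted p = 3.28e-06). Its relative Nr1d2 (REV-ERBβ) was at 43.7, 53.1, 36.2 and 46.8 CPM in WT and 12.99, 21.6, 13.9 and 26.5 CPM in KO (log2 fold change -1.28 ± 0.24, adjusted p = 0.0157). Neither gene overlapped between genotypes. Per3 fell as well, from 11.4, 18.9, 6.01 and 12.96 CPM in WT to 5.05, 2.101, 2.38 and 1.54 CPM in KO (log2 fold change -2.11 ± 0.43, adjusted p = 0.0286), a call that was lost without WT replicate 2 or 4, or without KO replicate 2, 3 or 4. Ciart, a further repressor, was at 2.72 to 10.3 CPM in WT and 0.644 to 2.38 CPM in KO without overlap but did not pass the test (log2 fold change -1.85 ± 0.47, adjusted p = 0.0913). The period genes Per1 and Per2 and the second cryptochrome Cry2 gave log2 fold changes of -0.49 (adjusted p = 0.66), -0.25 (0.801) and -0.046 (0.962). Bhlhe40 and Bhlhe41, which compete with the BMAL1 pair for its binding sites, gave -0.43 (0.24) and -1.26 (0.633).

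Of 8 output factors of the clock, 3 were lower in KO and none was higher. Dbp (chr7:45705100-45710203), an activator of daytime genes, had 105, 236, 63.4 and 94.1 CPM in WT and 18.6, 22.1, 34.99 and 12.1 CPM in KO (log2 fold change -2.47 ± 0.31, adjusted p = 0.000214). This was the steepest fall within the clock lists, and WT replicate 2 was far above the other WT libraries. Tef, of the same family, had 57.5, 88.5, 38.5 and 54.3 CPM in WT and 27.5, 29.5, 31.7 and 18.6 CPM in KO (log2 fold change -1.14 ± 0.21, adjusted p = 0.0157). Usp2, which encodes a deubiquitinase, had 25.2, 58.7, 23.04 and 25.01 and 14.3, 12.96, 17.1 and 5.98 CPM (log2 fold change -1.37 ± 0.28, adjusted p = 0.0313). WT replicate 2 was again highest. The Usp2 call was lost without it, and without KO replicate 1, 2 or 4. Hlf, the third member of the family, was at 11.7 to 28.7 CPM in WT and 10.1 to 14.7 CPM in KO (log2 fold change -0.55 ± 0.23, adjusted p = 0.367). Nfil3, a repressor that binds the same sites as DBP, gave 0.76 ± 0.35 (adjusted p = 0.428). Wee1, a cell cycle kinase under clock control, gave -0.53 ± 0.32 (0.575), and Lonrf3 and Tspan4 gave 1.22 (0.596) and 0.036 (0.974).

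**Figure D2:**
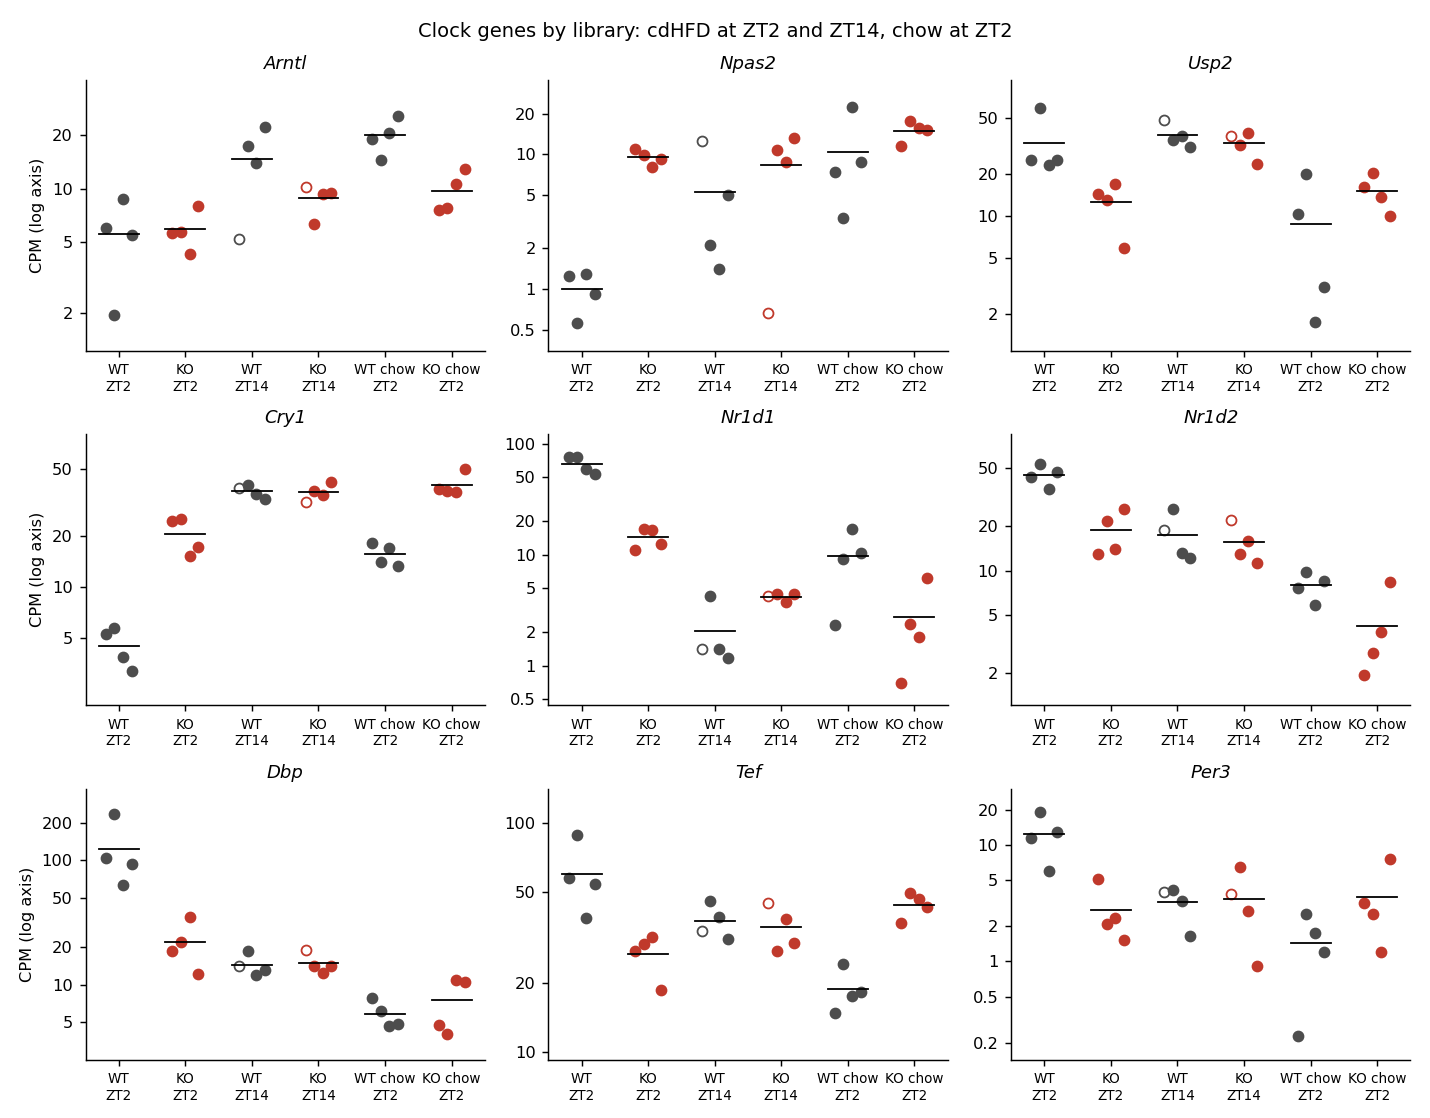
Each panel shows 1 clock gene, with CPM on a log axis and 1 point per library for Hep-Bmal1WT and Hep-Bmal1KO on cdHFD at ZT2 and ZT14 and on chow at ZT2 (line, mean of 4; open points, the 2 ZT14 libraries nearer to the other label). At ZT2 on cdHFD the points of Cry1, Nr1d1 and Dbp do not overlap between genotypes, and at ZT14 those of all 3 genes do.

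Beyond the clock, 7 of the 10 genes with the smallest p among those at least 2-fold higher in KO, with a mean of at least 5 CPM, had other roles. Clpx, the ATP-driven unfoldase of the mitochondrial ClpXP protease, stood at 177, 84.2, 96.4 and 82.95 CPM in WT and 251, 275, 232 and 226 CPM in KO (log2 fold change 1.18 ± 0.19, adjusted p = 0.00351). WT replicate 1 was apart from the other WT libraries but still below all KO libraries. Cdkn1a, an inhibitor of cyclin-dependent kinases that is induced by p53, was at 14.6, 17.1, 28.04 and 33.9 CPM in WT and 45.4, 49.5, 60.01 and 52.3 CPM in KO (log2 fold change 1.18 ± 0.20, adjusted p = 0.00562). Ddit4l, an inhibitor of mTOR signaling, was at 5.55, 5.01, 9.01 and 5.95 and 11.1, 15.3, 17.4 and 16.4 CPM (log2 fold change 1.24 ± 0.21, adjusted p = 0.00562). Neither gene overlapped. Lgalsl, a relative of the galectins, was at 12.6 to 21.9 CPM in WT and 33.6 to 43.9 CPM in KO (log2 fold change 1.19 ± 0.18, adjusted p = 0.00192). S100g, a calcium-binding protein of the S100 family, had 1.66, 2.23, 2.15 and 3.96 CPM in WT and 14.8, 13.4, 2.53 and 17.2 CPM in KO (log2 fold change 2.27 ± 0.40, adjusted p = 0.00759), and KO replicate 3 lay within the WT range. Tceal8 had 97.7, 104, 58.4 and 48.8 and 128, 128, 177 and 168 CPM (log2 fold change 1.03 ± 0.20, adjusted p = 0.0204), with a wider gap in males than in females.

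On the lower side, Upp2 (chr2:58566317-58795846), which encodes a uridine phosphorylase that breaks down uridine in liver, had 73.5, 115, 43.4 and 86.9 CPM in WT and 22.6, 38.05, 19.2 and 16.2 CPM in KO (log2 fold change -1.74 ± 0.25, adjusted p = 0.00118). Mcm10 (chr2:4990724-5012791), a factor for starting DNA replication, had 12.6, 15.4, 28.04 and 25.2 and 3.11, 3.501, 6.49 and 2.73 CPM (log2 fold change -2.3 ± 0.31, adjusted p = 0.000366). All KO libraries were below all WT libraries for both genes. Slc1a2, a glutamate transporter, had 65.2, 59.4, 43.2 and 42.7 CPM in WT and 26.96, 28.7, 14.6 and 10.9 CPM in KO (log2 fold change -1.41 ± 0.27, adjusted p = 0.0187). Tns2, a tensin of focal adhesions, was at 43.8 to 50.8 CPM in WT and 12.5 to 25.2 CPM in KO (log2 fold change -1.3 ± 0.21, adjusted p = 0.00351). For Jade1, a scaffold of a histone acetyltransferase complex, the ranges were 28.004 to 41.04 and 11.9 to 22.4 CPM (log2 fold change -1.09 ± 0.18, adjusted p = 0.00365). Wipf3, a WASP-interacting protein of the actin cytoskeleton, was at 21.2 to 29.5 and 4.95 to 16.1 CPM (log2 fold change -1.26 ± 0.22, adjusted p = 0.00716). None of these groups overlapped. Of the 20 genes with the smallest p within these limits of fold and level (10 per direction), 13 stayed called in all 25 other fits of the same data. S100g was lost without KO replicate 4 alone, Slc1a2 without KO replicate 3 or 4, and Nr1d2 and Tef without WT replicate 2, KO replicate 1 or, in turn, KO replicate 3 or 4. Tceal8 was lost without WT or KO replicate 3 or 4, Cyp2b10 without WT replicate 2 or 4 or KO replicate 4, and Npas2, called in 18, in the most fits.

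The other 32 genes called at ZT2 were outside that rule, and those given next were picked after their values were seen. Gpr146, an orphan receptor of hepatocytes linked to lipoprotein secretion, was at 91.8, 107, 68.1 and 76.7 CPM in WT and 44.9, 47.9, 49.2 and 36.4 CPM in KO (log2 fold change -0.94 ± 0.15, adjusted p = 0.00365). Trib1, a pseudokinase that also bears on plasma lipids, was at 26.7 to 39.9 and 12.03 to 22.1 CPM (log2 fold change -0.99 ± 0.18, adjusted p = 0.0143). Both were lower in KO without overlap. Cyp26a1, which clears retinoic acid, fell from 22.04, 21.7, 22.3 and 11.1 CPM in WT to 5.16, 3.85, 3.01 and 7.68 CPM in KO (log2 fold change -1.98 ± 0.41, adjusted p = 0.0313). Slc38a3, the glutamine transporter SNAT3, was lower, at 387 to 722 CPM in WT and 279 to 349 CPM in KO (log2 fold change -0.75 ± 0.16, adjusted p = 0.0438), and the phosphate transporter Slc20a1 at 54.2 to 56.6 and 33.6 to 37.5 CPM (log2 fold change -0.63 ± 0.14, adjusted p = 0.0438). Slc20a1 was the smallest change among all called genes. The calls of Cyp26a1, Slc38a3 and Slc20a1 were lost without WT replicate 1 or 2 or KO replicate 1 or 2, among others (8, 12 and 13 of 25 fits), and that of Trib1 without KO replicate 3 or 4. Higher in KO were Pnrc1, a nuclear receptor coactivator, at 77.5 to 122 CPM in WT and 163 to 231 CPM in KO (log2 fold change 0.95 ± 0.16, adjusted p = 0.00368), and Desi2 at 32.1 to 38.6 and 62.7 to 77.9 CPM (log2 fold change 0.98 ± 0.15, adjusted p = 0.00328).

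Xenobiotic metabolism, the group of genes by which liver modifies and clears foreign compounds, had 1 member higher and 2 lower among 29 tested, and its median of 0.055 was close to that of all genes. Cyp2a5 (chr7:26835339-26843264), which hydroxylates coumarin and nicotine, was at 469, 664, 729 and 962 CPM in WT and 35.7, 51.9, 85.98 and 120.0 CPM in KO (log2 fold change -3.38 ± 0.72, adjusted p = 0.0438). It was the largest fall among called genes with a mean of at least 5 CPM, and the groups lay far apart. Its adjusted p was nevertheless just under the threshold, and the call was lost in 12 of 25 other fits (adjusted p = 0.0528 to 0.248), among them those without WT replicate 1, 2 or 4 at ZT2 or without any 1 of the 4 KO libraries. With the 8 ZT2 libraries alone the call was kept. Cyp2b10, the classical target of the receptor CAR, had 5.41, 3.34, 1.29 and 0.457 CPM in WT and 14.5, 18.9, 25.7 and 35.5 CPM in KO (log2 fold change 3.55 ± 0.69, adjusted p = 0.0187). The 2 WT males were lowest and the 2 KO males highest. Cyp2b13, a female-biased relative, was at 119.8 and 97.2 CPM in WT females and at 15.4 and 14.2 CPM in KO females, while the males of both genotypes were at 0.572 to 1.9002 CPM (log2 fold change -2.24 ± 0.46, adjusted p = 0.0313). That call was lost in 8 of 25 other fits (adjusted p = 0.0548 to 0.502), among them DESeq2 and those without a sex term, without WT replicate 1 or 2 or without KO replicate 1 or 2. Reads of Cyp2a5 and Cyp2a4, and of the Cyp2b genes, may be shared between close copies, so the split within each family is uncertain. Por, the electron donor of these enzymes, was at 219.6 to 418 CPM in WT and 125 to 222 CPM in KO (log2 fold change -0.66 ± 0.18, adjusted p = 0.109).

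No member of the lists for lipid synthesis, sterols, bile acids, fatty acid oxidation, glucose, amino acids, choline or NAD metabolism passed the test at ZT2, although most members of some lists had the same sign. Of 17 genes of lipogenesis, 15 had negative log2 fold changes (median -0.35), against 7804 of 15548 over all genes. Thrsp, a thyroid hormone and carbohydrate responsive regulator of fat synthesis, was at 31.1, 75.96, 43.5 and 45.3 CPM in WT and 11.9, 14.01, 5.07 and 8.71 CPM in KO (log2 fold change -2.24 ± 0.64, adjusted p = 0.138). The groups did not overlap, yet the SE was wide, and without the 2 libraries nearer to the other label the adjusted p was 0.0028. At ZT14 those 2 libraries stood at 53.99 CPM (WT) and 313.9 CPM (KO) for Thrsp, the lowest and the highest of their labels. Leaving them out was chosen after the data were seen, so p values of that fit are no independent test of any gene here. Mlxipl, which encodes ChREBP, the glucose-sensing activator of that program, was at 51.8, 50.6, 66.2 and 82.03 and 41.5, 42.4, 17.9 and 32.4 CPM (log2 fold change -0.89 ± 0.22, adjusted p = 0.0874; without the 2 libraries 0.0352). Khk, the first enzyme of fructose use, was at 335 to 416 CPM in WT and 168 to 311 CPM in KO (log2 fold change -0.75 ± 0.27, adjusted p = 0.264). In that smaller fit 3 members of the list were lower and none higher, against 94 of all 15548 genes lower (0.605%). Khk, 1 of the 3, is among the 20 genes of the label check, so that fit is no independent test of it. Elovl5, a fatty acid elongase, was 1 of the 2 positive members (0.51 ± 0.17, adjusted p = 0.212). The 12 carboxylesterases, which hydrolyze lipid esters and drugs, had a median of -0.63 with 10 negative and none called. Ces1d, a triglyceride hydrolase, was at 357, 417, 89.6 and 129 CPM in WT and 84.4, 107, 49.6 and 93.1 CPM in KO (log2 fold change -1.4 ± 0.43, adjusted p = 0.18), with both females of the WT group far above its males. Ces3a, Ces1e and Ces1f gave -1.03 (adjusted p = 0.088), -0.99 (0.142) and -1.15 (0.173). Without the 2 libraries 4 members were lower, against 0.605% of all genes. Ces1d, which is also a gene of the label check, was among them, so that fit is no independent test of this list. Reads of Ces1 genes may be shared between neighbors of the cluster.

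Lpl, the lipoprotein lipase, is normally low in adult hepatocytes. It was at 244, 278, 243 and 224 CPM in WT and 539, 559.8, 419.6 and 410.4 CPM in KO (log2 fold change 0.95 ± 0.24, adjusted p = 0.0913), without overlap. The 19 genes of cholesterol synthesis had a median of -0.089 and 10 negative members, and the 18 genes of sterol control a median of -0.11. Insig2, which holds the sterol sensor in the endoplasmic reticulum, was at 238, 131, 241 and 128 and 299.5, 343, 319 and 354 CPM (log2 fold change 0.84 ± 0.20, adjusted p = 0.0759; without the 2 libraries 0.0316). On chow at the same hour the synthesis genes stood otherwise, with 8 of 19 higher in KO and a median of 0.91. Over all genes tested on chow, 71 of 15548 (0.457%) were higher and the median was 0.032. However, no single gene of the list passed the test of the difference between diets. Medians were -0.21 for 19 bile acid genes, -0.18 for 20 genes of triglycerides and lipid droplets, -0.076 for 22 of fatty acid oxidation and -0.027 for 18 of glucose metabolism. Slco1a1, a bile acid and drug transporter that is male-biased, was at 0.832, 0.835, 6.295 and 22.9 CPM in WT and 0.967, 1.52, 0.792 and 1.54 CPM in KO (log2 fold change -1.78 ± 0.77, adjusted p = 0.39). Hilpda, an inhibitor of triglyceride hydrolysis on droplets, was at 12.96 to 17.9 and 19.98 to 34.99 CPM (log2 fold change 0.80 ± 0.21, adjusted p = 0.0991). Pdk4, which spares pyruvate when fat is burned, was at 4.02, 2.36, 1.29 and 1.68 and 4.403, 10.9, 5.86 and 5.98 CPM (log2 fold change 1.59 ± 0.42, adjusted p = 0.0995). Gys2, the liver glycogen synthase, was at 76.8 to 151 and 49.6 to 65.6 CPM (log2 fold change -0.94 ± 0.26, adjusted p = 0.12; without the 2 libraries 0.00221). The 21 genes of amino acids and urea had a median of -0.055, the 17 of choline and methionine -0.12 and the 12 of NAD metabolism -0.0081. The p values without the 2 libraries come from a fit chosen after the data were seen and are no independent test. Whether any list stood apart from the other genes was not tested.

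**Figure D3:**
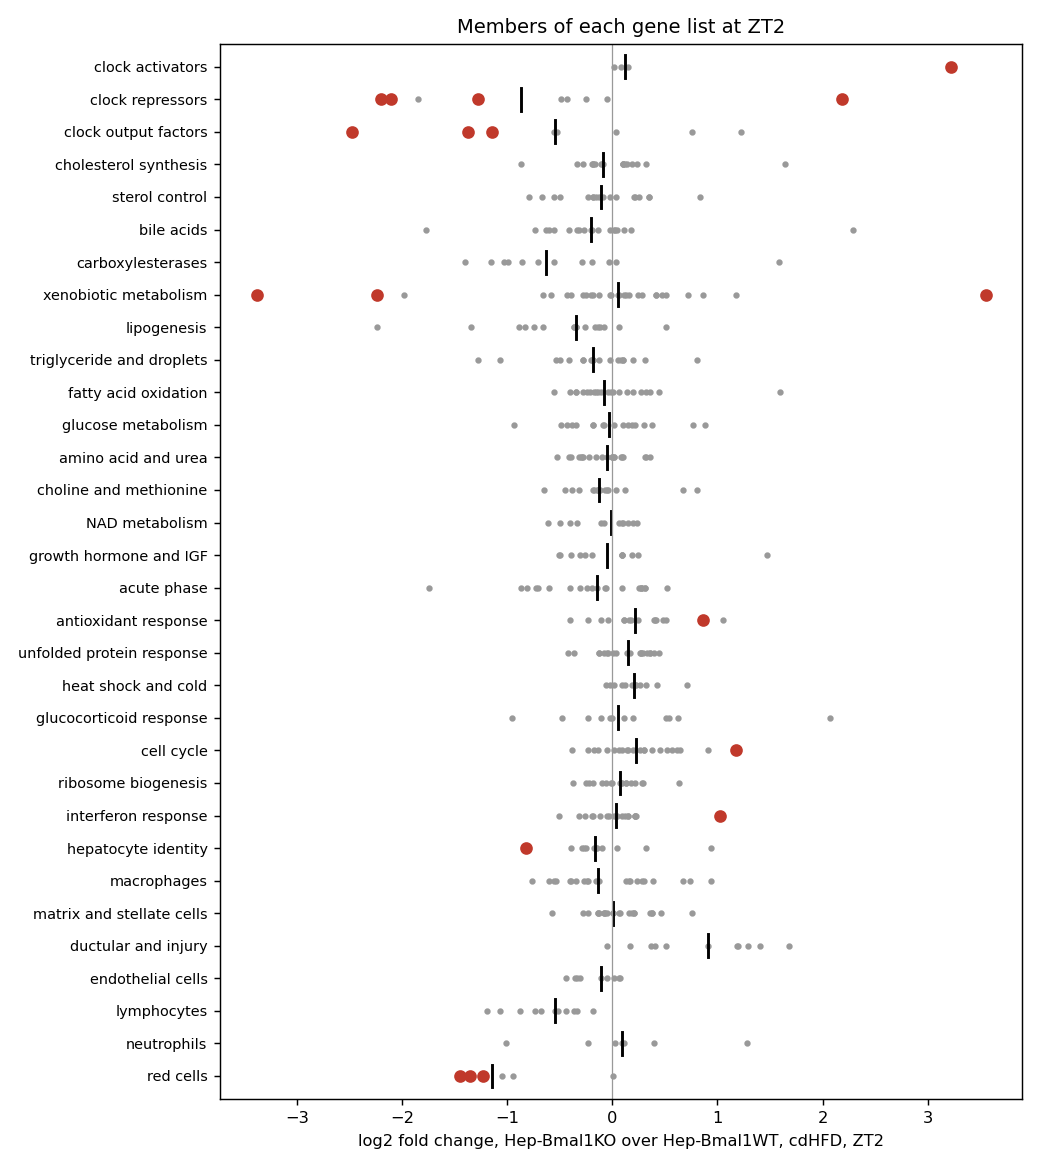
Each row is 1 of 32 gene lists, and each point is the log2 fold change of Hep-Bmal1KO over Hep-Bmal1WT of 1 member at ZT2 on cdHFD (red, adjusted p under 0.05; black bar, median of the list). The red points lie in the clock lists, xenobiotic metabolism, red cells and, with 1 each, antioxidant response, cell cycle, interferon response and hepatocyte identity, and in none of the lists of lipid, sterol or glucose metabolism.

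Markers of cell types were read beside these groups, and in bulk tissue fewer cells of a type and less mRNA per cell cannot be told apart. Of the 12 hepatocyte identity genes, 9 had negative and 3 had positive log2 fold changes (median -0.16, highest 0.94). Over 10 of them, without the 2 most abundant, the summed CPM was 824 to 1014 in WT and 690 to 807 in KO. The 2 left out were Alb and Ttr, and Ttr was at 9102 to 15600 CPM in WT and 11971 to 21024 CPM in KO. In this list 1 member was called. That gene, Cebpa, which encodes C/EBPα, was at 113, 157, 115 and 79.7 CPM in WT and 75.5, 90.8, 49.9 and 48.3 CPM in KO (log2 fold change -0.82 ± 0.18, adjusted p = 0.0438), and its call was lost without WT replicate 2 or 3 or without KO replicate 1, 3 or 4. Hnf4a, the central hepatocyte factor, was at 243 to 285 and 203 to 244 CPM (log2 fold change -0.25 ± 0.13, adjusted p = 0.485). Of 6 genes of red cells, 3 were lower in KO, with a median of -1.14. Hba-a1, an α-globin, was at 118, 45.9, 129.6 and 282 CPM in WT and 28.8, 45.1, 64.4 and 57.04 CPM in KO (log2 fold change -1.45 ± 0.29, adjusted p = 0.0212), and Hba-a2 shares reads with it (log2 fold change -1.36 ± 0.29, adjusted p = 0.0423). Alas2, the first enzyme of heme synthesis in erythroid cells, was at 19.5, 18.1, 27.6 and 49.6 and 9.99, 9.804, 13.1 and 13.3 CPM (log2 fold change -1.23 ± 0.27, adjusted p = 0.0438). The summed level of the list was 386 to 1591 CPM in WT and 227 to 628 CPM in KO, so the sums overlapped, and WT replicate 4 was highest. All 3 calls were lost without WT replicate 1 or 4, or without KO replicate 1, 3 or 4, at ZT2. How much blood remained in the livers, and its part in these differences, was not tested.

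No gene of the lists for macrophages, lymphocytes, neutrophils, endothelial cells, matrix and stellate cells or duct cells passed the test. The list of ductular and injury genes had the highest median of any list at 0.91, with 10 of 11 members positive and none called. Spp1, osteopontin, which is secreted by injured ducts and macrophages, was at 94.1, 46.3, 55.7 and 54.6 CPM in WT and 180.1, 119.9, 148 and 121 CPM in KO (log2 fold change 1.18 ± 0.35, adjusted p = 0.153). Cd24a was at 6.15 to 9.57 and 14.2 to 26.3 CPM (log2 fold change 1.29 ± 0.40, adjusted p = 0.178), and Sox9, a factor of duct cells, at 5.15 to 13.7 and 13.8 to 22.9 CPM (log2 fold change 0.91 ± 0.29, adjusted p = 0.193). In Spp1, Cd24a and Sox9 the KO libraries lay above all WT libraries, and Spp1 was the one list member called without the 2 ZT14 libraries (0.0229). Krt19, a keratin of bile ducts, was highest in KO females, at 24.6 and 12.7 CPM, against 1.66 to 5.87 CPM in WT (log2 fold change 1.68 ± 0.57, adjusted p = 0.237). Macrophage markers summed to 2509.5 to 4379 CPM in WT and 2958 to 4356 CPM in KO, with a median log2 fold change of -0.14 over 22 genes. Within that list Ccl2, the chemokine that recruits monocytes, was at 26.2, 27.1, 24.6 and 30.04 CPM in WT and 38.7, 40.5, 52.1 and 40.8 CPM in KO (log2 fold change 0.67 ± 0.16, adjusted p = 0.0638). Cd9 and Gpnmb, which mark lipid-associated macrophages, gave 0.74 (adjusted p = 0.101) and 0.94 (0.129), and these 3 did not overlap and passed without the 2 libraries (0.0176, 0.0134 and 0.0132). That fit was chosen after the data were seen and is no independent test of them or of Spp1. Clec4f, a marker of resident Kupffer cells, gave -0.54 (0.375). Matrix and stellate cell genes had a median of 0.0053 over 23, with Dcn at 0.36 (0.323) and Timp1 at 0.46 (0.582). Lymphocyte genes were all 11 negative (median -0.54), with sums of 40.9 to 109.5 CPM in WT and 33.98 to 55.3 CPM in KO, and none was called. Endothelial genes had a median of -0.11 over 9 and neutrophil genes 0.092 over 7, among which Ltf was at or near 0 in all 8 libraries.

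The remaining lists gave few calls. Gclc, the rate-limiting enzyme of glutathione synthesis, was the one gene of 16 in the antioxidant response that was called, with 193, 165, 270.0 and 181 CPM in WT and 253, 241, 518 and 506 CPM in KO (log2 fold change 0.87 ± 0.19, adjusted p = 0.0438). Both KO males were far above every other library, while the KO females lay within the WT range, and the call was lost without WT replicate 1, 2 or 4 or without KO replicate 3 or 4. The list's median was 0.21, and Nqo1, an NRF2 target, gave 0.48 (0.359). Rsad2, the antiviral protein viperin, was the one gene of 20 in the interferon response that was called, with 11.5, 16.8, 10.3 and 21.2 and 21.3, 28.4, 32.5 and 40.3 CPM (log2 fold change 1.02 ± 0.22, adjusted p = 0.0438), whereas the list's median was 0.040. That call was lost without WT replicate 1, 2 or 3 or without KO replicate 2, 3 or 4. Cdkn1a was the one gene of 22 in the cell cycle list, whose median was 0.23 with 17 positive. Mcm6, part of the replicative helicase, gave 0.62 (0.384) in that list. No gene was called among 20 of the unfolded protein response (median 0.15), 12 of heat shock and cold (0.20), 12 of the glucocorticoid response (0.058), 18 of ribosome biogenesis (0.075), 21 of the acute phase (-0.15) or 12 of growth hormone and IGF signaling (-0.054). In the acute phase list Orm3, an orosomucoid, was at 3.05, 5.15, 6.44 and 5.49 CPM in WT and 2.15, 1.63, 0.475 and 1.71 CPM in KO without overlap (log2 fold change -1.74 ± 0.59, adjusted p = 0.229). Igfbp1, a fasting-induced binding protein of IGF, was at 163, 193, 434 and 339 CPM in WT and 491, 1005, 396 and 1174 CPM in KO (log2 fold change 1.48 ± 0.45, adjusted p = 0.173). Its KO replicate 3 lay within the WT range. Genes of muscle, fat, pancreas and other tissues (11 tested) gave no call. In this group the negative fold changes, such as -4.15 for Acta1, rested on WT replicate 3. Single ZT14 libraries bore on the ZT2 calls near the threshold. Without WT replicate 2 or 3 or KO replicate 3 of ZT14, the calls of Cyp2a5, Cebpa, Alas2, Hba-a2, Slc38a3, Slc20a1, Gclc and Rsad2 were lost, and without WT replicate 3 of ZT14 so were those of Usp2, Cyp2b13 and Cyp26a1.

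**Figure D4:**
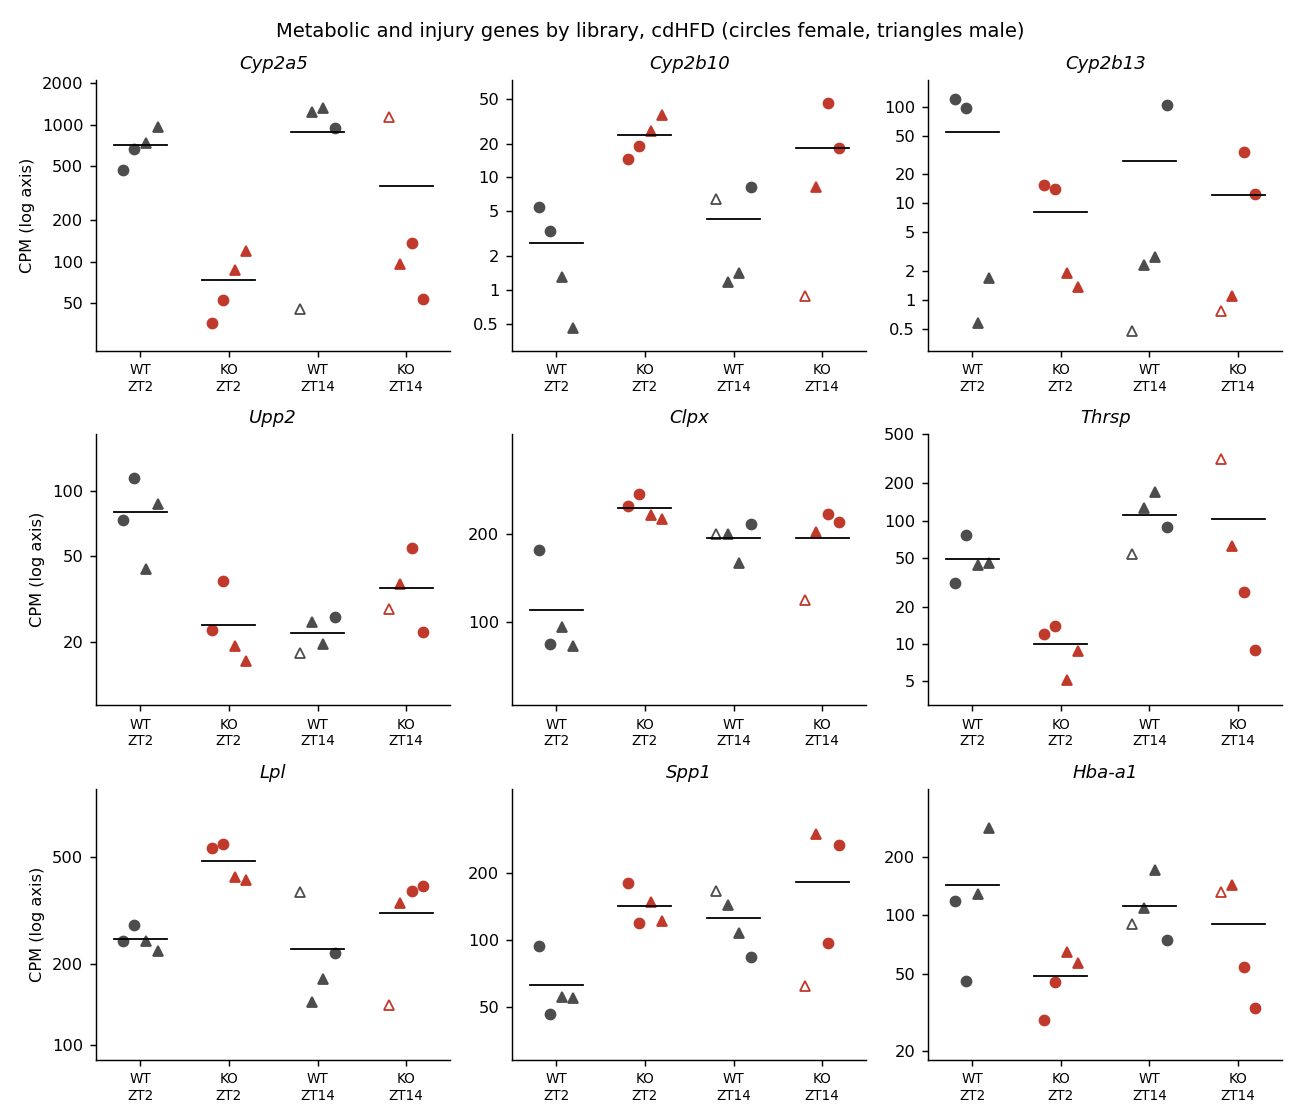
Each panel shows 1 gene in the cdHFD libraries at ZT2 and ZT14, with CPM on a log axis (line, mean of 4; circles, females; triangles, males; open points, the 2 ZT14 libraries nearer to the other label). Cyp2a5 and Upp2 were called lower in Hep-Bmal1KO at ZT2, the points of Lpl and Spp1 lie higher in Hep-Bmal1KO but missed the test (Cyp2a5 and Lpl are among the 20 genes of the label check), and for Cyp2a5 at ZT14 the open points sit at 45.2 and 1131 CPM, each among the libraries of the other genotype.

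At ZT14, 12 h away, no gene was called between KO and WT (0% of 15548, with 536 or 3.45% at an unadjusted p under 0.05 in edgeR and 2 genes called by DESeq2). None of the 52 genes called at ZT2 therefore passed at ZT14. A call at one time and none at the other does not show a difference between times, so the difference itself was tested, and 6 genes passed (0.0386%), all of which were among the 52. Among them were Cry1 (difference of the log2 fold changes, ZT2 minus ZT14, 2.29 ± 0.25, adjusted p = 4.25e-05), Nr1d1 (-3.24 ± 0.39, 0.000145), Upp2 (-2.33 ± 0.36, 0.00472), Mcm10 (-2.45 ± 0.43, 0.0296) and Dbp (-2.51 ± 0.46, 0.0371). Cry1 and Nr1d1 passed in every other fit and Upp2 in all but 1. Dbp passed in none of the fits without KO replicate 1, 2 or 4 of ZT2, or without WT replicate 1, 3 or 4 or KO replicate 1 or 2 of ZT14, and Mcm10 in none without WT replicate 2 or KO replicate 1 or 4 of ZT2, or without replicate 1 or 3 of either genotype at ZT14. For the other 46 the test passed at ZT2 but not for the difference, so these data do not show that their difference was particular to ZT2.

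Cry1 at ZT14 was at 38.7, 40.4, 35.4 and 33.3 CPM in WT and 31.7, 36.9, 35.1 and 41.9 CPM in KO (log2 fold change -0.11, 95% interval -0.44 to 0.23), levels above those of either genotype at ZT2. Its levels in the KO livers at ZT2 lay between the WT livers of ZT2 and those of ZT14. Nr1d1 at ZT14 was low in both genotypes, at 1.42, 4.25, 1.4004 and 1.16 CPM in WT and 4.198, 4.398, 3.75 and 4.401 CPM in KO, and its log2 fold change had the opposite sign to ZT2 (1.04, 0.37 to 1.71, unadjusted p = 0.00392, adjusted p = 1). Dbp was at 14.1, 18.6, 11.9 and 13.1 and 19.1, 14.3, 12.5 and 14.1 CPM (0.032, -0.65 to 0.72). Upp2 was at 17.7, 24.7, 19.4 and 25.96 CPM in WT and 28.5, 37.2, 54.6 and 22.2 CPM in KO (0.59, 0.055 to 1.12), and Mcm10 at 3.95, 9.47, 7.88 and 5.32 and 13.04, 4.87, 5.17 and 3.34 CPM (0.15, -0.49 to 0.80). For each of these 4 genes the WT livers were higher at ZT2 than at ZT14 in all 4 libraries, and the KO levels at ZT2 lay nearer to those of ZT14, as a description of the levels without a test. Without the 2 libraries nearer to the other label the log2 fold change at ZT14 was -0.046 for Cry1, 0.89 for Nr1d1, 0.57 for Upp2, -0.18 for Dbp and -0.50 for Mcm10, so that the sign turned for Dbp and Mcm10.

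Of the 52 genes, 31 had the same sign at ZT14 as at ZT2 (59.6%, against 54.9% of all genes tested), and their median log2 fold change in the direction of ZT2 was 1.25 at ZT2 and 0.10 at ZT14 (0.24 at ZT14 without the 2 libraries nearer to the other label, where 40 had the same sign). In 16 of them (30.8%, against 36.4% of all genes tested) the 95% interval at ZT14 lay within 1.5-fold on either side. For 9 of these it did so with and without those libraries, and they included Cry1, Clpx, Jade1, Pnrc1, Tceal8, Fgfr3, Slc20a1 and Bdh2. In the fit without those libraries 9 of the 52 met this bound, against 3719 of 15548 genes tested (23.9%). Clpx at ZT14 was at 159 to 216 CPM in WT and 119 to 235 CPM in KO (-0.11, -0.50 to 0.28, and 0.10 without the 2 libraries), and the test of its difference between times gave 1.29 ± 0.27 (adjusted p = 0.132). Jade1 gave -0.07 (-0.45 to 0.31) at ZT14, and Slc20a1 gave 0.088 (-0.21 to 0.38). On the other side, 10 of the 52 had an unadjusted p under 0.05 at ZT14 in the direction of ZT2, among them Gse1 (-0.68, unadjusted p = 0.002), Wipf3 (-0.61, 0.0135), Cdkn1a (0.52, 0.0168) and Cyp2b13 (-1.82, 0.000651). All 10 missed the adjusted threshold at ZT14. The count of genes for the difference between times was 10 without WT replicate 3 and 11 without WT replicate 4 of ZT2, and 1 gene was called at ZT14 without WT replicate 2 or WT replicate 4 of ZT14.

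**Figure D5:**
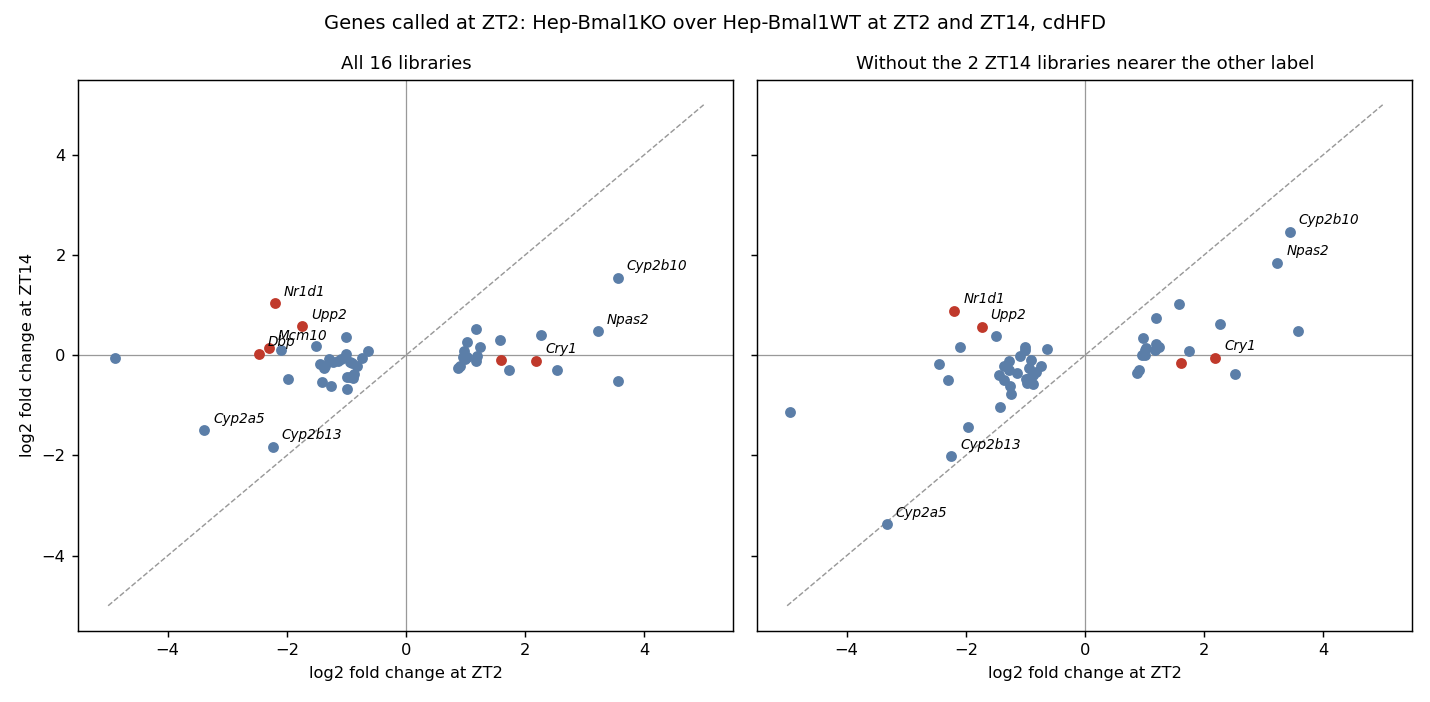
Each point is 1 of the 52 genes called at ZT2, with its log2 fold change of Hep-Bmal1KO over Hep-Bmal1WT at ZT2 on the horizontal axis and at ZT14 on the vertical axis, from all 16 cdHFD libraries on the left and without the 2 ZT14 libraries nearer to the other label on the right. With all libraries 31 of the 52 have the same sign at both times, and without the 2 libraries 40 do.

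Without the library labelled WT replicate 1 and the library labelled KO replicate 1 at ZT14, a fit chosen after the data were seen, the counts were 170 at ZT2 (1.09%, with 76 or 0.489% higher and 94 or 0.605% lower), 43 at ZT14 (0.277%, with 25 or 0.161% higher and 18 or 0.116% lower) and 5 for the difference between times (0.0322%). The ZT2 libraries were the same in both fits, and all 52 genes remained among the 170. Of the 170 genes called at ZT2, 24 were also called at ZT14, all in the same direction. Of these 24, 9 were among the 20 genes by which the libraries were chosen, Cyp2a5, Cyp2a4, Khk, Lpl and Ces1d included. Of the genes that had not, picked after their values were seen, Npas2 had log2 fold changes of 3.23 at ZT2 and 1.85 at ZT14 (adjusted p = 0.016 at ZT14), Gpnmb 0.96 and 1.19 (0.0223), Thrsp -2.25 and -1.94 (0.0448), Gys2 -0.91 and -0.98 (0.0134) and Ces1e -0.99 and -1.2 (0.0167). The libraries were left out for lying on the side of the other genotype, so these counts describe the remaining libraries and are no independent test. The difference between times stayed called for Cry1 (adjusted p = 0.000522), Nr1d1 (0.00146) and Upp2 (0.0164). It missed the threshold for Dbp (0.161) and Mcm10 (0.161), and Rrm2, a subunit of ribonucleotide reductase, joined (1.59, 0.0113).

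On chow at ZT2, 133 genes differed between KO and WT (0.855%), 71 higher (0.457%) and 62 lower (0.399%). Of the 52 genes called on cdHFD, 43 had the same direction on chow (82.7%, against 56.4% of all genes tested), and 6 were called there in that direction. Among these were Cry1 (log2 fold change on chow 1.36 ± 0.19, adjusted p = 0.000233), Nr1d1 (-1.74 ± 0.41, 0.0408), Mcm10 (-1.62 ± 0.28, 0.00239), Tceal8 (1.13 ± 0.27, 0.039) and Cyp2a5 (-2.11 ± 0.29, 0.000171). Tef was called in both diets with opposite signs, since on chow it was at 14.7, 24.3, 17.6 and 18.3 CPM in WT and 36.5, 49.6, 46.5 and 42.7 CPM in KO (1.21 ± 0.22, 0.00566). The chow libraries held 1861740 to 7087447 reads on genes. One of them, WT replicate 1, lay at 0.512 on the label scale, slightly nearer to KO than to WT.

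The difference of the genotype effect between diets passed for 7 genes (0.045%), with 3 higher (0.0193%) and 4 lower (0.0257%) on cdHFD. Upp2 was at 49.5, 50.9, 80.9 and 101 CPM in WT and 52.6, 55.6, 79.6 and 105 CPM in KO on chow, close to equal, so that its fall in KO was larger on cdHFD (difference -1.81 ± 0.29, adjusted p = 0.00634). For Tef the difference was -2.34 ± 0.31 (0.000606). Thrsp was at 86.1 to 265 CPM in WT and 139 to 452 CPM in KO on chow, and its difference was -2.88 ± 0.40 (0.000934). Lpl rose in KO from 30.4, 28.5, 22.9 and 16.6 CPM to 359, 334, 212 and 362 CPM on chow, more steeply than on cdHFD, where the WT level was already 224 to 278 CPM (-2.72 ± 0.28, 1.18e-05). Lgals3, galectin-3 of activated macrophages, was at 318 to 463 CPM in WT and 571 to 694 CPM in KO on cdHFD and at 20.5 to 24.03 and 11.3 to 16.6 CPM on chow (1.32 ± 0.23, 0.0158). Mup17, a major urinary protein, was at 615, 540.5, 104 and 217 CPM in chow WT livers and at most 50.2 CPM in the other 12. Cyp3a44, a female-biased enzyme, was at 40.4 and 120.4 CPM in the chow WT females and at most 2.23 CPM elsewhere. Their differences were 3.39 ± 0.56 (0.00743) and 7.3 ± 1.12 (0.00361), and both have close copies that can share reads. Cyp3a44 was not called without WT chow replicate 4 or with DESeq2, nor Lgals3 without WT cdHFD replicate 2. Without a term for sex, Cyp3a44, Lgals3, Mup17, Thrsp and Upp2 were not called. The count was 17 without KO chow replicate 2, 11 without WT chow replicate 4 or KO chow replicate 3, and 2 without a term for sex.

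Sex entered the comparison as a covariate, and with 2 mice of each sex per genotype it was also crossed with genotype within ZT2. Of the 52 genes, 51 had the same direction in both sexes (98.1%, against 45.8% of all genes tested), a share that their choice on the same 8 libraries favors. The genotype effect differed between males and females for 136 genes (0.875%), with a more positive effect in males for 81 (0.521%) and a more negative one for 55 (0.354%), and in 124 of these the signs were opposite. Of the 136, 4 were among the 52: Cyp2b10 (male minus female 3.15 ± 0.56, adjusted p = 0.0145), Cyp2b13 (3.43 ± 0.57, 0.00982), Tceal8 (1.34 ± 0.26, 0.0239) and Arrdc3, an arrestin-domain protein (1.22 ± 0.27, 0.0406). Cyp2b13 was the one of the 52 whose sign differed, at 0.55 in males and -2.87 in females. For Cyp2b10 the log2 fold change was 5.08 in males and 1.92 in females, both positive. This count rests on single mice and ran from 2 without WT replicate 1 to 346 without WT replicate 3. It was 52 and 277 without WT replicate 2 and 4, and 11, 11, 4 and 63 without KO replicate 1 to 4. Cyp2b10 was not called without WT replicate 1 or any 1 of the KO libraries, Tceal8 and Arrdc3 without either WT female or any 1 of the KO libraries, and Cyp2b13 without WT replicate 1 or KO replicate 1, 2 or 3. At ZT2 the call of Arrdc3 was lost in 11 of 25 other fits (adjusted p = 0.0524 to 0.164).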

How the data were processed

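RNA of 96 livers was profiled by BRB-seq, of which 24 libraries were used here. Per the labels and the methods, the authors demultiplexed the reads with the BRB-seq tools, aligned them to mm10 with STAR and counted them per gene with HTSeq or featureCounts. The versions, and whether molecular identifiers were collapsed, are not given in the sources used here. The deposited values are raw counts per gene. The 5 entries that name no gene took 24.6 to 27.0% of the reads of the ZT2 cdHFD libraries and were left out. Depth is given in the report, and it limits genes with few reads.

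Genes with at least 100 counts summed over all 96 libraries were kept (15548 of 55487). They were tested with edgeR 4.0.16 in R 4.3.3 (TMM scaling, estimateDisp, glmQLFit and glmQLFTest) on 16 cdHFD libraries, with group means and a sex term (11 residual degrees of freedom). Contrasts were KO against WT at ZT2, the same at ZT14, and their difference. A second fit of 16 ZT2 libraries compared the diets, and a fit of the 8 ZT2 cdHFD libraries crossed genotype with sex. All use the same quasi-likelihood test. P values were adjusted by Benjamini-Hochberg over all genes of a contrast, and genes under 0.05 were called. The SE was derived from the F statistic. Alternative fits changed the scaling, the filter, the libraries or the test (DESeq2 1.42.0), and the scripts were tested on simulated data.

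Genes named are the 10 with the smallest p in each direction among those called at ZT2 that changed by 1 or more on the log2 scale, had a mean of 5 CPM or more and were no predicted gene model. To these were added up to 5 per direction for the difference between times, 3 per direction for diet, all clock genes and the 4 with the smallest p of each other list. The members and lists were chosen with earlier results of these data known. Positions are from RefSeq GRCm38.p6 (14791 genes matched by symbol). Groups and sex came from the labels. Replicate numbers follow the order of deposit and pair nothing. Some genes are not reported here and were left out of the lists, though not of the counts over all genes.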

Additional observations from a re-analysis of the deposited data

Results flagged for a closer look

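Some libraries lay far from the other 3 of their group. The summed CPM of genes of other tissues was 899 in WT replicate 3 at ZT2, against 474 to 497 in the other WT libraries. Clpx was at 177 CPM in WT replicate 1, against 82.95 to 96.4, and Per1 at 14.0 CPM in the same library, against 8.73 to 9.30. Usp2 was at 58.7 CPM in WT replicate 2, against 23.04 to 25.2. In KO, the endothelial genes summed to 330.0 CPM in replicate 3, against 230.4 to 243, and Bhlhe40 was at 31.0 CPM in replicate 2, against 19.6 to 21.5. These were 6 of 92 groups of 4 libraries examined, and chance alone would mark about 5%.

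The effect of genotype differed between ZT2 and ZT14 for Cry1 (2.29 on the log2 scale, adjusted p = 4.25e-05), Nr1d1 (-3.24, 0.000145), Upp2 (-2.33, 0.00472), Mcm10 (-2.45, 0.0296) and Dbp (-2.51, 0.0371). It differed between cdHFD and chow at ZT2 for Cyp3a44 (7.30, 0.00361), Mup17 (3.39, 0.00743), Lgals3 (1.32, 0.0158), Lpl (-2.72, 1.18e-05), Tef (-2.34, 0.000606) and Thrsp (-2.88, 0.000934). Within ZT2 on cdHFD it differed between the sexes for 136 genes, among them Cyp2b10 (male minus female 3.15, 0.0145) and Tceal8 (1.34, 0.0239). All of these adjusted p values are from edgeR's quasi-likelihood test.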

How the results depend on the processing

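Among the genes compared singly across fits, no called fold change reversed direction. These were genes of the naming rules and some picked later, and the direction of other called genes was not checked across all fits. The 52 genes called at ZT2 became 258 with all 48 cdHFD libraries, 24 without the sex term, 185 with DESeq2, 482 with no filter beyond 1 count, 99 with the 8 ZT2 libraries alone and 170 without both ZT14 libraries nearer to the other label. Leaving out 1 of the 16 libraries gave 21 to 127. The 0 genes at ZT14 became 2 with DESeq2, 54 with no filter and 43 without both libraries, with 0 to 1 when 1 library was left out. For the difference between times the 6 genes became 21 with all 48 libraries, 14 with DESeq2 and 144 with no filter (4 to 11 without 1 library). For the difference between diets the 7 genes became 2 without the sex term, 25 with DESeq2 and 145 with no filter (6 to 17 without 1 library). For the difference between sexes the 136 genes became 406 with DESeq2 and 550 with no filter (2 to 346 without 1 library, a fit in which 1 sex and genotype is a single mouse assumed to vary like the others). Other scaling, a filter of 10 counts and a robust spread stayed within 1.5 times of each count they were run for. Similar counts did not always hold the same genes. Of the 52 genes at ZT2, other scaling kept 52, the filter 50 and the robust spread 40 (of 51 called). Leaving out WT replicate 1 of ZT2 gave 55 genes, 32 of them among the 52, and leaving out KO replicate 2 gave 44, with 34 among the 52. The cause of these shifts was not tested.

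Over the named genes, 3885 of the fold changes refitted at ZT2 kept direction and side of the threshold, 169 newly passed and 187 no longer passed, and at ZT14 the numbers were 4223, 20 and 0. The fits that leave out a library of the other time, and those for both ZT14 libraries and for the sexes, were chosen after the data were seen. No paired analysis was possible because the labels give no replicate numbers that groups share. The planned description of promoter motifs was not run. Depth limits genes with few reads, such as Tinag (1 to 4 reads in WT and 21 to 76 in KO) and Tafa2 (1 to 23 and 0 to 1).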

Other observations

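Genes known to differ between male and female liver were read separately within each sex, with 2 mice per genotype and lists chosen after the values were seen. Of 18 male-biased genes, 4 were lower in KO males and none was higher, with a median log2 fold change of -0.86 in males and -0.050 in females. The 2 WT males lay several-fold apart in some of these genes. WT replicate 4 was at 433 CPM and WT replicate 3 at 105 CPM for Serpina1e, and at 22.9 and 6.3 CPM for Slco1a1. For Cyp2u1 they were closer, at 25.3 and 17.9 CPM. Of 16 female-biased genes tested, 3 were higher in KO males and none was lower (median 0.31), while in females 1 was higher and 2 were lower (median -0.56). Over all 15548 genes, 283 were higher and 216 lower in males, and 45 and 37 in females. These calls are from edgeR's quasi-likelihood test on the 8 ZT2 cdHFD libraries.

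Slc22a27, an organic anion transporter with female-biased expression, was at 64.05 and 72.2 CPM in WT females and 48.4 and 46.6 CPM in KO females. In WT males it was at 5.29 and 3.05 CPM and in KO males at 16.8 and 37.1 CPM (male minus female 3.19 ± 0.44, adjusted p = 0.00437). Cyp2a4, a steroid hydroxylase that is higher in females, was at 310.8 and 313 CPM in WT females and at 26.6 and 48.9 CPM in KO females, and it may share reads with Cyp2a5.

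The clock of WT livers stood differently on cdHFD and chow at ZT2, as a description without a test. Dbp was at 105, 236, 63.4 and 94.1 CPM on cdHFD and at 7.83, 6.12, 4.69 and 4.83 CPM on chow. Nr1d1 was at 76.2, 75.7, 59.1 and 53.1 CPM on cdHFD and at 2.302, 9.08, 16.99 and 10.4 CPM on chow. Cry1 was at 5.27, 5.70, 3.86 and 3.20 CPM on cdHFD and at 18.2, 14.2, 16.99 and 13.3 CPM on chow, so that the groups of WT libraries did not overlap in any of the 3 genes.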
